A study of Mus musculus with 10 samples.

Results

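The genes described here encode 5 peptidases of the jejunal brush border (Anpep, Dpp4, Enpep, Mep1a and Mep1b) and 4 carriers or carrier subunits that take up their products (Slc15a1, Slc6a19, Slc7a9 and Slc3a1). They were picked by gene symbol, and all 9 were found among the 35275 genes listed. Protein in the gut lumen is cut into peptides, and peptidases anchored in the microvillus membrane of enterocytes trim these to single amino acids and very short peptides. The short peptides enter the enterocyte with protons through PEPT1, encoded by Slc15a1, and the amino acids through sodium-coupled carriers or exchangers. MYO5B is a myosin motor that carries vesicles with membrane proteins to this apical surface, and the groups allow asking whether transcripts of such apical proteins differed after its loss and with lysophosphatidic acid (LPA).

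RNA of jejunal epithelial cells was sequenced from 10 C57BL/6 mice, labelled as adult males, that all carried VillinCreERT2, a tamoxifen-inducible Cre recombinase driven by the villin promoter and so active in the intestinal epithelium, and MYO5Bflox/flox alleles. The 3 control mice received corn oil instead of tamoxifen, so the inducer is a further difference from the knockout mice. A group of 4 MYO5B-knockout mice received 1 dose of 2 mg tamoxifen and vehicle (0.1% bovine serum albumin), and 3 other MYO5B-knockout mice received 2 mg tamoxifen and 3 mg/kg LPA into the peritoneum, over 4 days in both cases. The description of LPA-treated mouse 1 names vehicle as well as LPA, while its title gives LPA.

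Values are FPKM, reads per kilobase of gene scaled to the reads that each library holds on genes (10949420 to 24470409 per mouse). Values of single mice are given in the order of their numbers, which is 2, 4 and 5 for control, 3, 5, 6 and 7 for MYO5B-knockout and 1, 4 and 5 for LPA-treated mice. Myo5b showed FPKM values of 16.5, 32.0 and 26.1 in control, 10.5, 12.2, 13.1 and 13.6 in MYO5B-knockout and 11.7, 11.4 and 10.3 in LPA-treated mice. Every knockout mouse lay below every control mouse, although the value covers the whole gene and the adjusted p by limma was 0.115 for MYO5B-knockout and 0.0939 for LPA-treated against control mice. On reads recovered from the FPKM, the adjusted p for MYO5B-knockout against control mice was 0.0268 by edgeR and 1.2e-06 by DESeq2. For LPA-treated against control mice it was 0.0172 by edgeR and 2.6e-08 by DESeq2. Control mouse 2 and MYO5B-knockout mouse 3 stood apart, with 12242 and 12601 genes detected against 17309 to 18267 in the other 8 libraries, and with 17.4% and 18.0% mitochondrial reads against 1.98% to 3.50%. MYO5B-knockout mouse 3 and LPA-treated mouse 1 also went against the label male, with Xist at 8.41 and 15.1 FPKM and 0 reads on the Y-linked genes examined. Results are therefore also given with these libraries left out.

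The lowest mouse of each group was nearly the same for all of the genes. Control mouse 2 was the lowest control mouse for 9 of 9 genes, LPA-treated mouse 5 was the lowest LPA-treated mouse for 9 of 9, and MYO5B-knockout mouse 3 was the lowest MYO5B-knockout mouse for 8 of 9, the exception being Mep1a. Summed over the 9 genes, the FPKM came to 1959, 3712 and 3779 in control, 525, 1331, 2560 and 2624 in MYO5B-knockout and 1586, 1803 and 708 in LPA-treated mice. Vil1, which encodes the microvillus actin-bundling protein villin, was lowest in the same mouse of each group, with FPKM of 216.5, 895 and 856 in control, 69.3, 349, 635 and 679 in MYO5B-knockout and 475, 334 and 107 in LPA-treated mice. Among other epithelial structural genes, Ezr, Cdh17, Pls1 and Eps8 were also lowest in these mice. Epcam, Cdh1, Krt8 and Krt19 were neither lowest nor highest in all of these mice. Krt18, in contrast, was the highest of its group in each of the mice lowest for Vil1 (262, 1445 and 1278 FPKM). Summed over 15 enterocyte markers, the lowest mice were control mouse 4 (40471 FPKM), MYO5B-knockout mouse 3 (21108 FPKM) and LPA-treated mouse 1 (31668 FPKM). Fabp1, Rbp2 and Apoa1 had the highest values in this sum in every mouse. Sis, Slc2a2, Treh, Lct, Apoa4, Apob, Alpi and Mttp were each lowest in control mouse 2, MYO5B-knockout mouse 3 and LPA-treated mouse 5. Fabp1, Fabp2, Apoa1, Apoc3, Slc5a1, Rbp2 and Cyp3a11 were not lowest in all of these mice. Of the mice lowest for the 9 genes, control mouse 2 and MYO5B-knockout mouse 3 are the libraries with few detected genes and many mitochondrial reads. LPA-treated mouse 5 is not among those libraries. The part of library quality in these low values was not tested. Whether the mice lowest for the 9 genes held fewer enterocytes was not tested either. In RNA pooled over the cells of a mouse, fewer enterocytes and less RNA per enterocyte cannot be told apart.

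**Figure D1:**
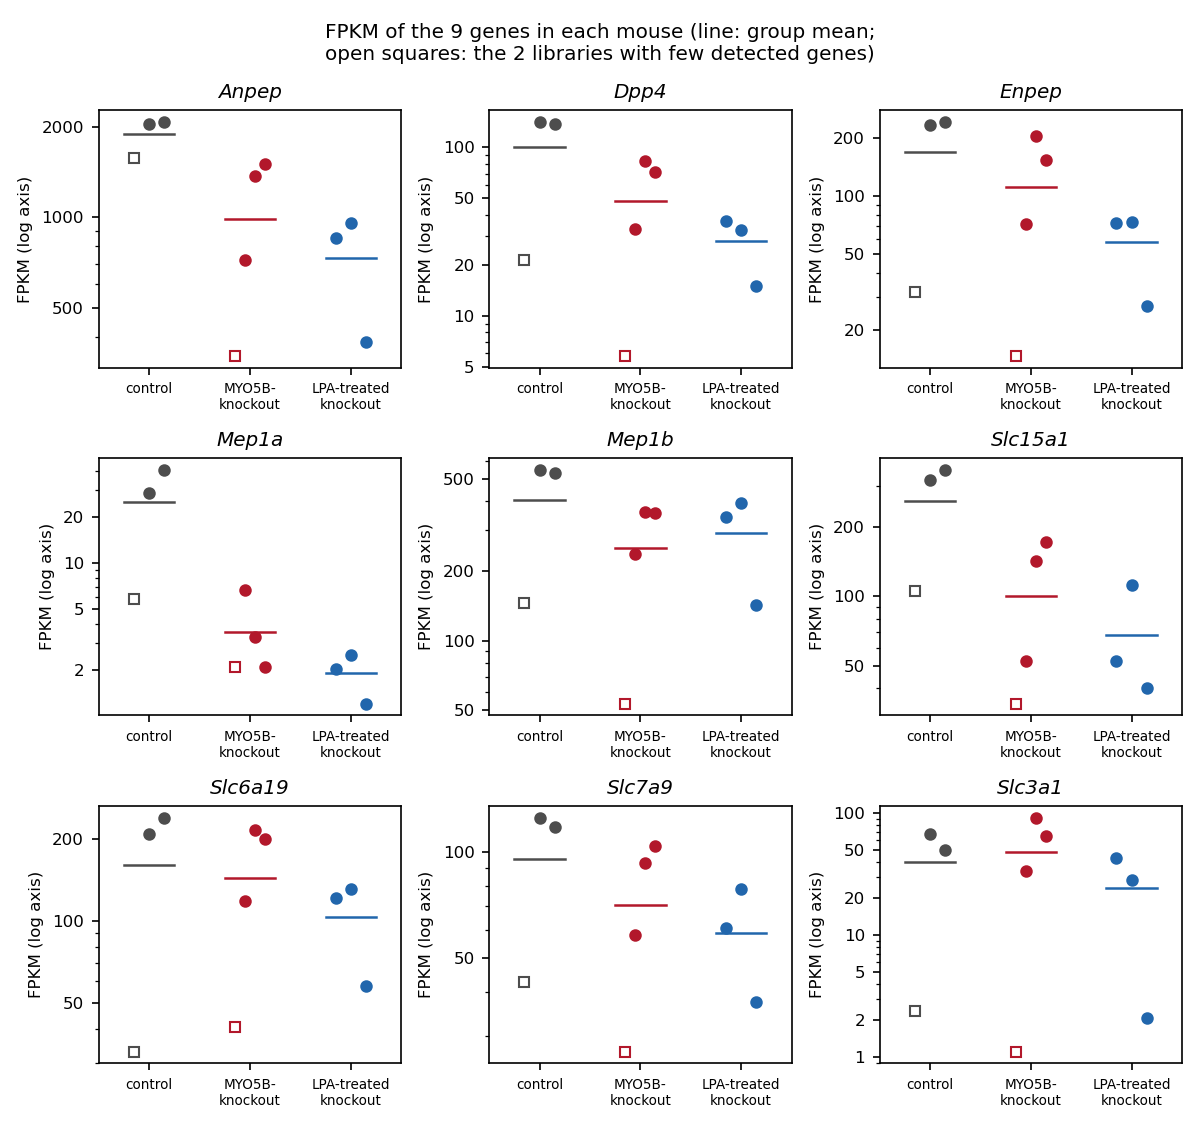
FPKM (log axis) of each of the 9 genes in each mouse, by group, with a line at the group mean and open squares for control mouse 2 and MYO5B-knockout mouse 3. The open squares are the lowest points of their groups in every panel except Mep1a, where MYO5B-knockout mouse 7 was marginally lower than mouse 3, and the 3 LPA-treated mice lie below all control mice for Anpep and Mep1a.

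Among the peptidases, Anpep (ENSMUSG00000039062, chromosome 7 from 79821803 to 79848210), which encodes the broad-specificity aminopeptidase N, was by far the most abundant and ranked 38 among all genes by its mean in control mice. The control mice had 1572, 2042 and 2072 FPKM, the MYO5B-knockout mice 346, 720, 1367 and 1499 FPKM and the LPA-treated mice 856, 953 and 384 FPKM. All 7 knockout mice lay below all 3 control mice, and Anpep was the only one of the 9 genes for which this held in both groups of knockout mice. Its log2 fold change on the log2(FPKM + 0.1) scale was -1.15 (SE, the standard error, 0.53, limma adjusted p = 0.293) between MYO5B-knockout and control mice, so it missed the threshold of 0.05.

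Mep1a (ENSMUSG00000023914, chromosome 17 from 43474324 to 43502812) encodes the alpha subunit of the metalloendopeptidase meprin and showed the lowest level of the peptidases and the largest difference between groups. It showed FPKM values of 5.86, 28.8 and 40.6 in control, 2.09, 6.69, 3.30 and 2.09 in MYO5B-knockout and 2.05, 2.53 and 1.21 in LPA-treated mice. MYO5B-knockout mouse 5 lay just above control mouse 2, so these groups overlapped, whereas the LPA-treated mice lay below every control mouse. The log2 fold change was -2.56 (SE 0.67, limma adjusted p = 0.0768) between MYO5B-knockout and control mice and -3.29 (SE 0.71, limma adjusted p = 0.0450) between LPA-treated and control mice. Mep1a thus fell in LPA-treated against control mice, and the adjusted p rose to between 0.0669 and 0.182 when control mouse 4 or 5, MYO5B-knockout mouse 6 or 7 or any 1 of the LPA-treated mice was left out. Between MYO5B-knockout and control mice, Mep1a passed when control mouse 2 was left out, at -3.40 (limma adjusted p = 0.0210).

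Mep1b (ENSMUSG00000024313, chromosome 18 from 21072344 to 21100199) encodes the beta subunit, which anchors meprin in the membrane. Its FPKM values were 145, 547 and 528 in control, 53.5, 237, 360 and 358 in MYO5B-knockout and 343, 392 and 143 in LPA-treated mice. All 3 groups overlapped, and the log2 fold changes against control mice were -0.79 in MYO5B-knockout mice (SE 0.73, limma adjusted p = 0.610) and -0.37 in LPA-treated mice (0.78, limma adjusted p = 0.840). The former was -0.15 without MYO5B-knockout mouse 3 and -1.42 without control mouse 2, and the latter 0.078 without LPA-treated mouse 5 and -1.0 without control mouse 2. Of the 9 genes, only Mep1b had a higher fitted mean in LPA-treated than in MYO5B-knockout mice (log2 fold change 0.41), which turned to -0.22 when the 2 libraries with few detected genes were left out.

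Dpp4 (ENSMUSG00000035000, chromosome 2 from 62330073 to 62412231) encodes dipeptidyl peptidase 4, which removes dipeptides that end in proline or alanine from the amino end of peptides. It showed FPKM values of 21.5, 142 and 138 in control, 5.81, 32.8, 82.7 and 71.7 in MYO5B-knockout and 36.5, 32.5 and 15 in LPA-treated mice. Control mice 4 and 5 lay above all knockout mice and control mouse 2 lay among them, and the log2 fold changes against control mice were -1.19 and -1.52 (limma adjusted p = 0.547 and 0.477). The former was -0.37 without MYO5B-knockout mouse 3 and -2.09 without control mouse 2. Enpep (ENSMUSG00000028024, chromosome 3 from 129269175 to 129332720) encodes aminopeptidase A, which cleaves acidic residues from the amino end. It showed FPKM values of 31.9, 235 and 242 in control, 14.8, 71.6, 206 and 154 in MYO5B-knockout and 72.7, 73.3 and 26.9 in LPA-treated mice. The pattern over mice was that of Dpp4, with log2 fold changes of -0.68 and -1.22 against control mice (limma adjusted p = 0.754 and 0.575). For Enpep the former was 0.11 without MYO5B-knockout mouse 3 and -1.65 without control mouse 2.

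Among the carriers, Slc15a1 (ENSMUSG00000025557, chromosome 14 from 121459621 to 121505254), which encodes the di- and tripeptide carrier PEPT1, had the largest fold change. The control mice had 105, 317 and 352 FPKM, the MYO5B-knockout mice 34.3, 52.6, 142 and 171 FPKM and the LPA-treated mice 52.2, 112 and 40.0 FPKM. Control mice 4 and 5 lay above every knockout mouse, but control mouse 2 lay below MYO5B-knockout mice 6 and 7 and LPA-treated mouse 4. The log2 fold change was -1.48 (SE 0.65, limma adjusted p = 0.270) between MYO5B-knockout and control mice and -1.88 (SE 0.69, limma adjusted p = 0.206) between LPA-treated and control mice.

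Slc6a19 (ENSMUSG00000021565, chromosome 13 from 73679745 to 73704865) encodes B0AT1, the sodium-coupled carrier of neutral amino acids. Its FPKM values were 33, 209 and 239 in control, 40.5, 118, 215 and 200.5 in MYO5B-knockout and 121, 131 and 57.8 in LPA-treated mice. The groups overlapped throughout. The log2 fold change between MYO5B-knockout and control mice was 0.02 (95% interval -1.66 to 1.70, limma adjusted p = 0.995), and it became -0.27 when the libraries were scaled by median ratios and -0.38 when both libraries with few detected genes were left out.

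Slc7a9 and Slc3a1 encode the light and the heavy subunit of the exchanger that takes up cystine and basic amino acids. Slc7a9 (ENSMUSG00000030492, chromosome 7 from 35449037 to 35466036) showed FPKM values of 42.8, 125 and 118 in control, 27.1, 58.0, 92.9 and 104 in MYO5B-knockout and 60.8, 78.3 and 37.3 in LPA-treated mice. Its log2 fold changes against control mice were -0.46 and -0.61 (limma adjusted p = 0.697 and 0.623). The former was -0.056 without MYO5B-knockout mouse 3 and -0.96 without control mouse 2. Slc3a1 (ENSMUSG00000024131, chromosome 17 from 85028347 to 85064243) had the widest range of the 9 genes, with FPKM values of 2.39, 67.2 and 49.9 in control, 1.11, 33.5, 91.6 and 65.0 in MYO5B-knockout and 42.5, 28.4 and 2.08 in LPA-treated mice. The lowest mouse of each group held only 28 to 64 reads of Slc3a1, and the log2 fold changes of 0.13 and -0.55 against control mice had 95% intervals of -3.56 to 3.82 and -4.50 to 3.39, with the former turning to -0.17 after median-ratio scaling. In the GENCODE M21 annotation, 26.5% of the exon bases of Slc3a1 are shared with Prepl on the opposite strand, whose reads came to 27.6% of those of Slc3a1, and whether the counting used strand is not stated.

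Between MYO5B-knockout and control mice, 0 of the 9 genes passed an adjusted p of 0.05 by limma, beside 2.01% of the 15729 genes tested (0.884% lower). At an unadjusted p under 0.05, 2 of the 9 genes (Mep1a and Slc15a1) passed, beside 17.6% of all genes. For 7 of 9 the fold change was below 0, and their median log2 fold change was -0.79, whereas the median of all genes was 0.29. This median of the 9 moved with single mice, to -0.15 without MYO5B-knockout mouse 3 (all genes 0.49), -0.46 and -0.49 without control mouse 4 or 5 and -1.42 without control mouse 2. The groups did not overlap for 1 of the 9 genes, Anpep, which was lower, and 6.20% of all genes were lower without overlap. After median-ratio scaling 9 of 9 genes were lower, with a median of -1.08 where all genes had 0.04. Without the 2 libraries with few detected genes, Mep1a passed at -3.21 (limma adjusted p = 0.0216), and the median of the 9 was -0.85. On the reads recovered from the FPKM, edgeR called Mep1a (adjusted p = 0.0171), beside 2.82% of all genes, and DESeq2 called Mep1a, Anpep and Slc15a1 (adjusted p = 1.98e-06, 0.0408 and 0.0487), beside 12.5% of all genes.

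Between LPA-treated and MYO5B-knockout mice, 0 of the 9 genes passed an adjusted p of 0.05 by limma, edgeR or DESeq2, and 0 of the 9 had an unadjusted p under 0.05 by limma. Of all genes tested, 0% passed by limma's adjusted p and 2.92% at an unadjusted p under 0.05, and DESeq2 called 0.0589%. The groups overlapped for each of the 9 genes, and did not for 4.16% of all genes. The fold change was below 0 for 8 of 9 genes, with a median of -0.32 where all genes had 0.11, and single mice moved the median of the 9 either way. It was 0.074 without LPA-treated mouse 5, closer to 0 without MYO5B-knockout mouse 6 or 7, -0.56 without LPA-treated mouse 4 and -0.82 without MYO5B-knockout mouse 3 (all genes -0.11), and 3 to 9 of the 9 genes were lower when single mice were left out. The 95% intervals were wide. They ran from -1.49 to 0.86 for Anpep, -2.21 to 0.75 for Mep1a, -1.83 to 1.03 for Slc15a1 and -1.33 to 1.03 for Slc7a9 on the log2 scale. A 2-fold fall lay inside the interval of each of the 9 genes.

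Between LPA-treated and control mice, 1 of the 9 genes passed, Mep1a, beside 2.32% of all genes in either direction and 0.776% that were lower. All 9 of the fold changes were below 0, with a median log2 fold change of -1.22 where all genes had 0.41, and -1.59 against 0.10 after median-ratio scaling. The median of the 9 was -0.75, -0.72 and -0.74 without control mouse 4, control mouse 5 or LPA-treated mouse 5 and -2.07 without control mouse 2, and 6 to 9 of the genes were lower when single mice were left out. The groups did not overlap for 2 of the 9, Anpep (log2 fold change -1.47, limma adjusted p = 0.228) and Mep1a, and 6.38% of all genes were lower without overlap. At an unadjusted p under 0.05, 3 of the 9 passed (Mep1a, Slc15a1 and Anpep), beside 16.4% of all genes. In edgeR Mep1a passed (adjusted p = 0.00971), beside 2.40% of all genes, and in DESeq2 Mep1a, Anpep and Slc15a1 (adjusted p = 3.07e-09, 0.00738 and 0.00987), beside 10.2%. Without control mouse 2 and MYO5B-knockout mouse 3, 3 of the 9 passed, Mep1a at -4.13, Slc15a1 at -2.44 and Dpp4 at -2.41 (limma adjusted p = 0.00636, 0.0450 and 0.0283). Without both libraries that go against the label male, Mep1a was at -3.36 (limma adjusted p = 0.0920). The control mice are shared with the comparison above, so the comparisons are not independent of each other.

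**Figure D2:**
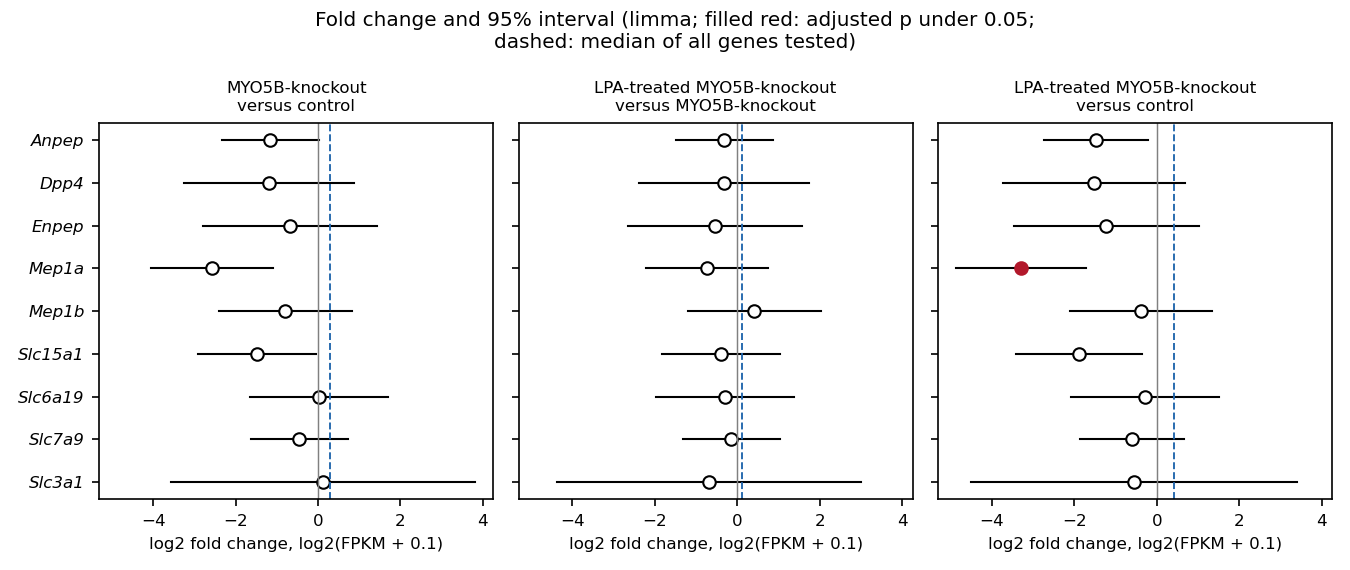
Log2 fold change on the log2(FPKM + 0.1) scale (x axis) of the 9 genes (y axis) in the 3 comparisons, with 95% intervals from limma and a dashed line at the median of all genes tested (0.29, 0.11 and 0.41). Only Mep1a between LPA-treated MYO5B-knockout and control mice is filled, at -3.29, and most intervals of the other genes include 0.

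Ratios of 2 genes within a library do not depend on how the libraries are scaled. Mep1a came to 4.04%, 5.26% and 7.69% of Mep1b in control, 3.92%, 2.82%, 0.917% and 0.585% in MYO5B-knockout and 0.599%, 0.646% and 0.848% in LPA-treated mice. All knockout mice lay below all control mice. The mean log2 ratio differed by -1.81 between MYO5B-knockout and control mice (exact two-sided permutation p = 0.0571) and by -2.99 between LPA-treated and control mice (exact p = 0.100), each the smallest p that the number of mice allows. Adjusted over the 12 ratio comparisons made, not all of which are given here, both exact p-values were 0.300.

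The other ratios described here overlapped between groups. Slc3a1 came to 5.60%, 53.9% and 42.4% of Slc7a9 in control, 4.09%, 57.7%, 98.7% and 62.7% in MYO5B-knockout and 70.0%, 36.3% and 5.58% in LPA-treated mice. The ratio was lowest in control mouse 2, MYO5B-knockout mouse 3 and LPA-treated mouse 5, the mice with 28 to 64 reads of Slc3a1. Slc15a1 came to between 6.68% and 17.0% of Anpep in control mice, 7.31% and 11.4% in MYO5B-knockout and 6.10% and 11.8% in LPA-treated mice, with exact permutation p-values of 0.457 and 0.500 against control mice.

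**Figure D3:**
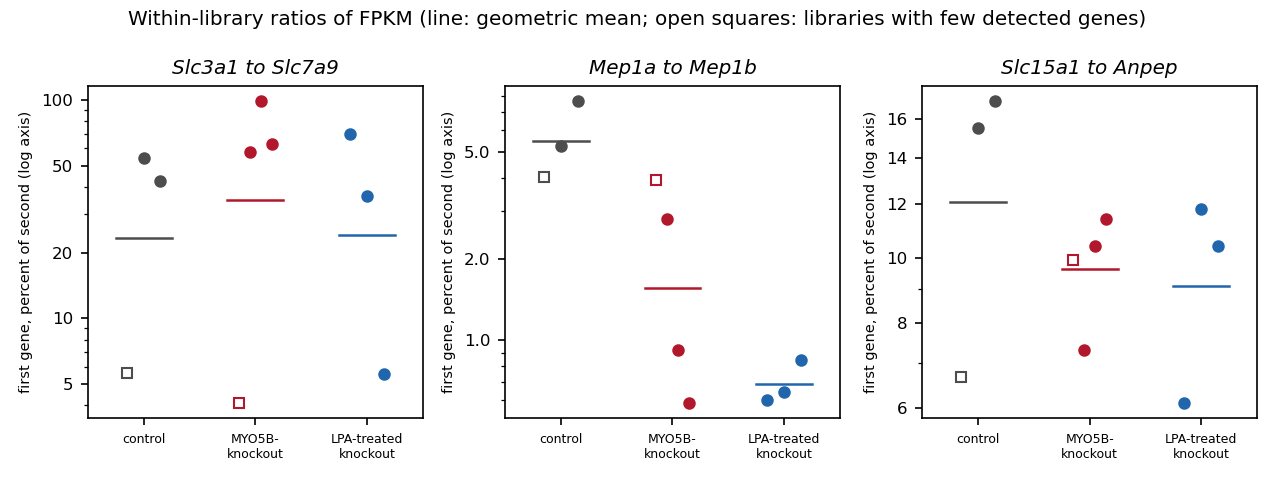
FPKM of the first gene as a percent of the second (log axis) in each mouse, for 3 pairs of genes, with a line at the geometric mean of each group and open squares for control mouse 2 and MYO5B-knockout mouse 3. The control and knockout mice separate for Mep1a to Mep1b and overlap for the other pairs.

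The bases before the start of Mep1a, Slc15a1 and Slc3a1 are shown because these are the peptidase and the carrier with the largest fold change and the gene with the widest range. The RefSeq promoters of the GRCm38.p6 build were cut at the outermost annotated start and searched on both strands for CAAAGNNCA, a core of sites of the enterocyte factor HNF4, for GTTAAT, a half-site of HNF1, and for TTTATNG, a site of the intestinal factor CDX2. Capitals mark matches. The windows are chr17:43502813-43503023 (minus strand), chr14:121505255-121505504 (minus strand) and chr17:85028097-85028346 (plus strand).
Mep1a: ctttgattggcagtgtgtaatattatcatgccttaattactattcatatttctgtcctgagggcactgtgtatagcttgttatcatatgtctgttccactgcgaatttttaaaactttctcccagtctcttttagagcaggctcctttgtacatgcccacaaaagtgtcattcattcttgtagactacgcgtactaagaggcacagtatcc
Slc15a1: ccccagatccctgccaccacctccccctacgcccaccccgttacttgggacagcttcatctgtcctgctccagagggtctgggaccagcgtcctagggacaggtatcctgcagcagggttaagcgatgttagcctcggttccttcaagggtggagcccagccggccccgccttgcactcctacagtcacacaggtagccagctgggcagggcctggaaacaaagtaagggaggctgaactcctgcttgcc
Slc3a1: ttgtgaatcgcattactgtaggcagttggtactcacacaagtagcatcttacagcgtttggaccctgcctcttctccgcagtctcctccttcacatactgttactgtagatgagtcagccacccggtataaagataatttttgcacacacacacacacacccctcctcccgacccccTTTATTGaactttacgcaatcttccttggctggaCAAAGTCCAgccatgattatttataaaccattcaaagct
Slc3a1 held CAAAGTCCA from 39 to 31 bases and TTTATTG from 73 to 67 bases before the start, and neither Mep1a nor Slc15a1 held a match in these windows. Over the full 250 bases, CAAAGNNCA was found in 2 of the 8 genes with a promoter examined (Slc3a1 and Slc7a9) and in 5.49% of 32851 promoters. GTTAAT was found in 0 of 8 and in 6.43% of promoters, and TTTATNG in 2 of 8 (Slc3a1 and Dpp4) and in 9.81%. These are matches of letters and do not show binding.

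Other genes of protein digestion were examined by their place in the pathway. Of 9 other brush border and luminal peptidases tested, 8 had a lower mean after loss of MYO5B. By limma 2 fell past the threshold, beside 0.884% of all genes. Ggt1, which encodes gamma-glutamyltransferase, had 887, 537 and 614 FPKM in the control mice, against 138 to 286 in the MYO5B-knockout and 199 to 295 in the LPA-treated mice (log2 fold changes -1.67 and -1.52, limma adjusted p = 0.0323 and 0.0498). The other was Naaladl1, a brush border exopeptidase, at 217, 41.5 and 242 FPKM in the control mice, but at most 28.4 FPKM in the knockout mice (-2.99 and -3.02, limma adjusted p = 0.0379 and 0.0438). In both genes control mouse 2 was not the lowest control mouse, unlike in the 9 genes above. When the libraries with few detected genes were left out, the adjusted p by limma between MYO5B-knockout and control mice was 0.0525 for Ggt1 and 0.0592 for Naaladl1. Xpnpep2, the gene of an aminopeptidase that cleaves before proline, had the lowest fold change of the list (-3.05) with an adjusted p of 0.0689 by limma. Tmprss15, the enteropeptidase gene, and Fap had -0.54 and 0.63. On recovered reads, edgeR called 3 of these 9 peptidases in MYO5B-knockout mice and DESeq2 5, beside 2.82% and 12.5% of all genes. Xpnpep2 was among them in both (adjusted p = 0.0416 by edgeR and 1.9e-04 by DESeq2).

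The 11 cytosolic peptidases tested finish the digestion of peptides inside the cell. In MYO5B-knockout mice, 5 were lower and 6 higher and 0 passed by limma, with a median of 0.38. Pepd, which encodes prolidase, came closest, with 202, 337 and 407 FPKM in the control mice, but at most 120 FPKM in the knockout mice (log2 fold change -2.35, limma adjusted p = 0.0501). It fell in LPA-treated against control mice (-2.53, limma adjusted p = 0.0471). Cndp2, a dipeptidase gene, had -1.18 in MYO5B-knockout mice. Tpp2 and Thop1, which encode cytosolic peptidases of a different kind, had 1.06 and 1.49, and none of these genes passed by limma. In the same comparison edgeR called 2 of the 11 and DESeq2 3, beside 2.82% and 12.5% of all genes. Cndp2 was among them in both (adjusted p = 0.0459 by edgeR and 7.8e-05 by DESeq2).

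Of 7 other apical amino acid carriers and partners tested, 0 passed by limma in MYO5B-knockout mice. Slc1a5, a carrier of glutamine and other neutral amino acids, showed FPKM values of 7.97, 9.51 and 9.24 in control, 18.5, 36.1, 25.9 and 18.6 in MYO5B-knockout and 50.7, 24.2 and 43.1 in LPA-treated mice. All knockout mice lay above all control mice. Of all genes, 17.2% did not overlap in either direction between MYO5B-knockout and control mice, and 26.9% between LPA-treated and control mice. Slc1a5 rose in LPA-treated against control mice (log2 fold change 2.07, limma adjusted p = 0.0188), but missed the threshold in MYO5B-knockout mice (1.41, limma adjusted p = 0.0636). The proton-coupled carrier gene Slc36a1 and Slc6a20a, for proline, had the lowest fold changes of the list in MYO5B-knockout mice (-2.69 and -1.50), and Slc6a6, for taurine, had 1.39. None of these 3 passed by limma. In MYO5B-knockout mice edgeR called 0 of the 7, beside 2.82% of all genes. DESeq2 called 4, beside 12.5%, with Slc1a5, Slc36a1 and Slc6a6 among them (adjusted p = 0.00524, 0.0111 and 0.0166).

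The 11 basolateral carriers tested pass amino acids on to the blood or take them up from it. By limma, 1 passed between MYO5B-knockout and control mice and 3 between LPA-treated and control mice, beside 2.01% and 2.32% of all genes. Slc38a2, a sodium-coupled carrier of neutral amino acids, rose in both (2.20 and 2.20, limma adjusted p = 0.0379 and 0.0441), from 2.78, 10.0 and 6.30 FPKM in the control mice to between 19.5 and 42.7 FPKM in the knockout mice. The exchanger subunit Slc7a8 and the uniporter Slc43a2 fell in LPA-treated mice (-2.38 and -3.46, limma adjusted p = 0.0323 and 0.0140) and had -1.80 and -2.17 in MYO5B-knockout mice (0.0661 and 0.0656). Slc7a5 and Slc38a1 had the highest fold changes of the list in MYO5B-knockout mice (3.21 and 2.23), without passing by limma. On recovered reads, edgeR called 5 of the 11 carriers in MYO5B-knockout mice and DESeq2 9, beside 2.82% and 12.5% of all genes. Slc38a1 was called by both (adjusted p = 0.0446 by edgeR and 2.6e-04 by DESeq2) and Slc7a5 by DESeq2 (adjusted p = 4.6e-04). Between LPA-treated and MYO5B-knockout mice, 0 genes passed in any of these lists. Leaving out single mice ended these calls by limma. The 3 between MYO5B-knockout and control mice (Naaladl1, Ggt1 and Slc38a2) were each lost when control mouse 2 or 5, MYO5B-knockout mouse 5 or 6 or any 1 of the LPA-treated mice was left out, with adjusted p-values by limma of 0.0520 to 0.158 in the fits that lost them. The 8 between LPA-treated and control mice, Mep1a included, were each lost when control mouse 5 or LPA-treated mouse 1 or 5 was left out, with 0.0528 to 0.195 in the fits that lost them.

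**Figure D4:**
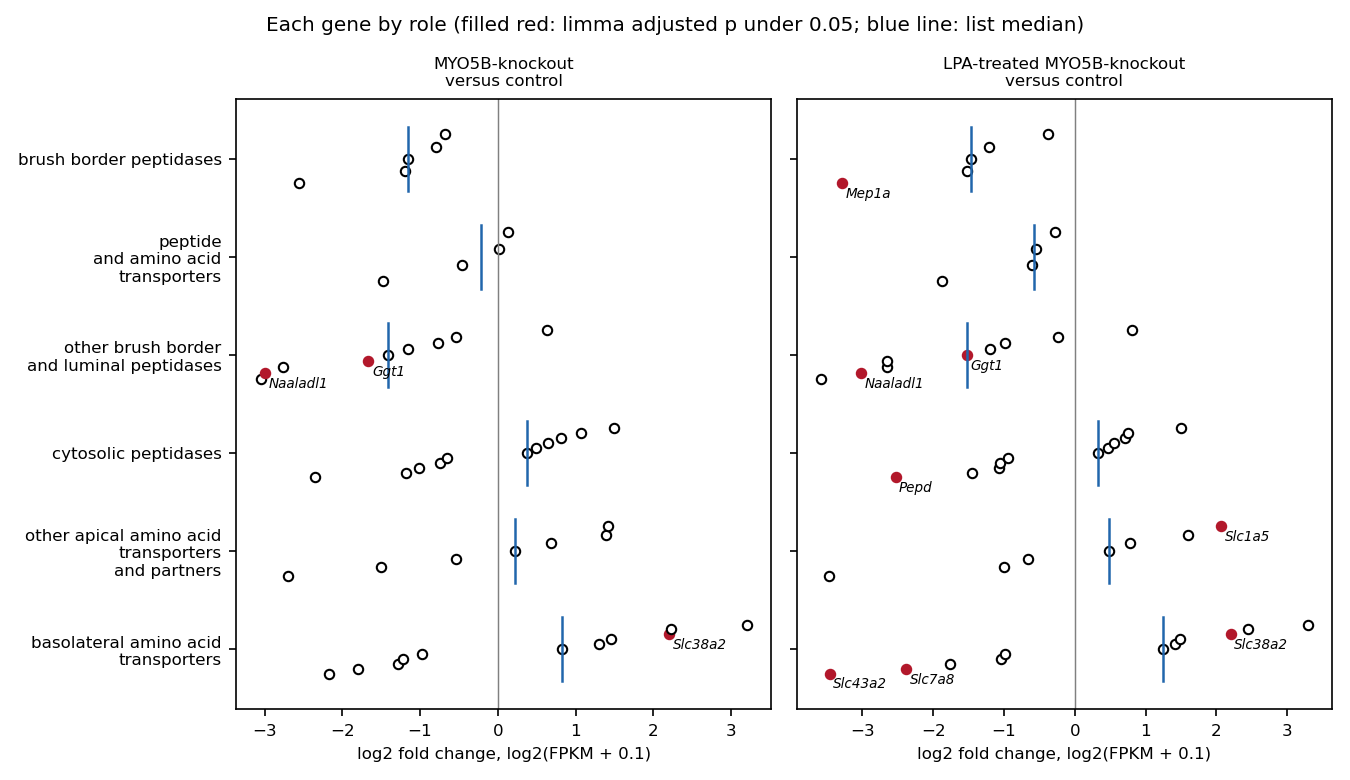
Log2 fold change on the log2(FPKM + 0.1) scale (x axis) of each tested gene by its role (y axis), in MYO5B-knockout and LPA-treated MYO5B-knockout mice against control mice, with a blue line at the median of the list. Genes that passed limma's adjusted p of 0.05 are filled and named, 3 in the left panel and 8 in the right panel, and the highest point of both panels is Slc7a5 (3.21 and 3.29), which did not pass.

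Markers of cell types moved between the groups as well. Of all genes, 2.01% passed by limma between MYO5B-knockout and control mice. All 12 immune cell markers had a fold change below 0 between MYO5B-knockout and control mice (median -2.42 on the log2 scale, 2 passed). Their summed level was 1593 to 2592 FPKM in control mice, 56.5 to 1013 FPKM in MYO5B-knockout mice and 170 to 257 FPKM in LPA-treated mice, with 1 of the 12, Itgae, at 0 in a MYO5B-knockout library. The 10 proliferation markers were all higher in MYO5B-knockout mice (median 1.28, 1 passed), with a summed level of 92.3 to 125 FPKM in control mice, 232 to 376 FPKM in MYO5B-knockout mice and 170 to 308 FPKM in LPA-treated mice. Of 15 enterocyte markers 11 were lower (median -0.995, 2 passed), and 10 epithelial structural genes, none of which was at 0 in any library, had a median of 0.37. The goblet, Paneth, enteroendocrine and tuft cell lists had medians of -0.15, -0.46, -0.33 and -0.99, with 0 genes passed in each. The summed level of stromal and endothelial markers was 4.63 to 9.76 FPKM in control, 3.21 to 6.00 FPKM in MYO5B-knockout and 6.71 to 15.4 FPKM in LPA-treated mice. The part of any of these in the values of the 9 genes was not tested. When the libraries were scaled to the epithelial structural genes, Mep1a was at -2.77 in MYO5B-knockout mice (limma adjusted p = 0.0302).

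Outside all lists, the genes whose profile over the 10 libraries lay nearest to the median profile of the 9 genes were Ccng2, Slc2a9, Clrn3, Eepd1 and Creb3l2, with a root mean square difference of 0.244, 0.245, 0.248, 0.249 and 0.258 on the log2 scale. Among the 9 themselves, Slc7a9 lay nearest to that profile (0.353) and Slc3a1 and Mep1a furthest from it (1.42 and 1.12).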

How the data were processed

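The 9 genes, the other lists and the tests were chosen with earlier results of these data known. The authors deposited FPKM for each gene and mouse on GRCm38 coordinates, and their processing notes name STAR 2.5, TopHat, HTSeq 0.6.1 and DESeq2. How these were combined, and any scaling between libraries, is not given in the sources used here. Multiplied by gene length, 100% of values were whole reads (tolerance 0.01), and 63 of 63 deposited read counts equalled the recovered ones. Deposited fold changes, p-values and pathway tables are the authors' own comparisons and were not used. No column of per-sample values was left out.

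The 15729 genes that averaged 0.1 FPKM or more were compared as log2(FPKM + 0.1) by limma 3.58.1, all 3 groups sharing a trended variance, two-sided, with Benjamini-Hochberg adjustment over all genes. This scale understates the change of low genes. A ratio was compared by an exact permutation test over mice (SciPy 1.17.1). The functions were tested on simulated data. The p-values weigh a difference between groups against the spread between mice. In limma this spread is pooled over the 3 groups and moderated across genes. Named were the 9 genes, Myo5b, Vil1, genes of the other peptide and amino acid lists past the threshold in any comparison or among the 2 highest and 2 lowest of a list in MYO5B-knockout against control mice, and the 5 genes most alike in profile. A further ratio that was computed is not reported here. Alternatives were other pseudocounts (1 and 0.01) and filters, median-ratio, quantile and epithelial scaling, the 2 groups compared alone, each mouse left out, a replicate block, libraries that stand apart left out, edgeR 4.0.16 and DESeq2 1.42.0 on recovered reads. Leaving out control mouse 2, MYO5B-knockout mouse 3 and LPA-treated mouse 1 together was chosen after seeing the data.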

Additional observations from a re-analysis of the deposited data

Results flagged for a closer look

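The ratio of Slc3a1 to Slc7a9, the heavy and light subunits of the cystine and basic amino acid exchanger, was 4.09% in MYO5B-knockout mouse 3 and 57.7%, 98.7% and 62.7% in MYO5B-knockout mice 5, 6 and 7. On the log2 scale, the gap between mouse 3 and the nearest other mouse took 0.832 of the range of the group, just above Dixon's 95% critical value of 0.829 for 4 samples. Of 13 items examined in this group it was the only one past that value, and chance alone passes about 1 in 20. MYO5B-knockout mouse 3 is 1 of the 2 libraries with few detected genes, and it held 28 reads of Slc3a1.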

How the results depend on the processing

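Over all alternatives tried, 564 of 630 fold changes of the 9 genes kept their direction and their side of the threshold, 15 came to pass it, 12 no longer did and 39 changed sign. Between MYO5B-knockout and control mice, the number of the 9 genes that passed went from 0 to 1 under median-ratio, quantile and epithelial scaling, without the 2 libraries with few detected genes, without the 3 libraries that stand apart or go against the label male, and in edgeR, and to 3 in DESeq2, and was 0 to 1 with single mice left out. Between LPA-treated and control mice it went from 1 to 0 with a pseudocount of 0.01, without a filter, with only the 2 groups compared, without both libraries that go against the label male, and with a replicate block, to 2 without the 3 libraries and to 3 in DESeq2 and without the 2 libraries. Single mice left out gave 0 to 1. Mouse numbers are shared by control and LPA-treated mice for 4 and 5 only, with correlations of deviations of 0.104 and -0.355. For number 5 the correlation was 0.300 between control and MYO5B-knockout mice and -0.214 between MYO5B-knockout and LPA-treated mice. With so few mice, these values cannot decide whether the numbers pair the mice. The replicate block put Mep1a at -4.20 on the log2 scale (adjusted p = 0.155 by limma) and 0 calls among all genes. No paired analysis was possible for the other comparisons because they share only the number 5.

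Signs changed as follows, in log2 units, and the cause was not tested. Between MYO5B-knockout and control mice, Slc6a19 was at -0.27 and Slc3a1 at -0.17 with median-ratio scaling, and at -0.20 and -0.096 with epithelial scaling. Slc6a19 was at -0.38 without the 2 libraries, -0.38 without the 3 libraries, -0.34 in edgeR and -0.38 in DESeq2. Without both libraries that go against the label male, Enpep was at 0.11 and Tmprss15 at 0.52. Between LPA-treated and MYO5B-knockout mice, Slc7a9 was at 0.0055 with epithelial scaling and Mep1b at -0.22 without the 2 libraries, -0.40 without both libraries against the label male and -0.40 without the 3. Between LPA-treated and control mice, Tpp2 was at -0.070 without the 2 libraries, and without the 3 and with the replicate block Tpp2 was at -0.41 and Slc6a6 at -0.041. The ratio of Slc3a1 to Slc7a9 differed by -0.98 between LPA-treated and control mice without the 2 libraries.

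Leaving out single mice, ranges that crossed 0 between MYO5B-knockout and control mice were -0.90 to 0.54 for Slc6a19, -1.39 to 1.53 for Slc3a1, -1.65 to 0.11 for Enpep, -1.24 to 0.52 for Tmprss15 and -0.46 to 1.60 for the ratio of Slc3a1 to Slc7a9. Between LPA-treated and MYO5B-knockout mice they were -0.22 to 0.87 for Mep1b, -1.15 to 0.12 for Dpp4, -0.55 to 0.15 for Slc7a9, -2.08 to 0.65 for Slc3a1, -0.75 to 0.095 for Anpep, -0.82 to 0.071 for Slc6a19, -0.82 to 0.074 for the median of the 9 genes, -1.55 to 0.54 for the ratio of Slc3a1 to Slc7a9 and -0.27 to 0.20 for that of Slc15a1 to Anpep. Between LPA-treated and control mice they were -0.070 to 1.19 for Tpp2, -1.20 to 0.23 for Slc6a19, -2.07 to 0.78 for Slc3a1, -0.93 to 0.37 for Tmprss15, -1.0 to 0.078 for Mep1b and -0.98 to 1.11 for the ratio of Slc3a1 to Slc7a9.

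The count of all genes that passed also moved. Between MYO5B-knockout and control mice it was 316, with 188 without a filter, 598 with median-ratio scaling (223 higher and 375 lower, against 177 and 139), 327 with epithelial scaling (112 and 215), 804 with quantile normalization (366 and 438), 50 with the 2 groups alone, 778 without the 2 libraries, 1274 without the 3, 1830 in DESeq2 and 44 to 403 with each mouse left out. Between LPA-treated and MYO5B-knockout mice it was 0, with 197 without the 3 libraries and 7 in DESeq2. Between LPA-treated and control mice it was 365 (243 higher and 122 lower), with 490 with median-ratio scaling (221 and 269), 626 with quantile normalization (300 and 326), 190 with the 2 groups alone, 1346 without the 2 libraries, 1899 without the 3, 1489 in DESeq2 and 73 to 702 with each mouse left out. Among the 9 genes, depth limits Slc3a1 most, with 28 reads in its lowest library.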
